A study of Homo sapiens with 12 samples.

Results

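The 10 receptor tyrosine kinase genes whose levels are known to differ between melanoma states were followed by name: EGFR, ERBB2, ERBB3, AXL, PDGFRB, MET, KIT, IGF1R, INSR and EPHA2. They are 10 of the 58307 gene rows of the deposited count table, each with 1 row of its own name. The libraries were labelled A375 or SK-MEL-28, names of established human melanoma cell lines, and a check of these labels is given below. Cells of each label were given etoposide, which poisons topoisomerase II, or etoposide + rapamycin, an inhibitor of the kinase mTOR. The 4 groups had 3 libraries each, 12 in all. Every group received etoposide, so the comparison with rapamycin measured its effect in cells that were also given etoposide. Untreated cells and cells given rapamycin alone were not analysed here. The study's methods call the RNA-seq replicates biological. The labels give no dose, time or culture for the libraries, so which cultures they came from is not stated, and p-values measure the spread between these libraries.

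A receptor tyrosine kinase binds a ligand outside the cell, pairs with another receptor and phosphorylates tyrosines on its own tail, where adaptors start the RAS/MAPK and PI3K/AKT/mTOR pathways. Active mTOR complex 1 restrains signalling from upstream receptors through feedback on adaptors such as IRS1. Release of this feedback by mTOR inhibitors is a known effect in many tumour cells. In melanoma, KIT and ERBB3 are tied to the melanocytic, MITF-driven state, whereas AXL, EGFR, PDGFRB and EPHA2 are known from dedifferentiated and drug-tolerant states.

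Library totals were 28189501 to 32499337 counts. Values are CPM, counts brought to the same depth with TMM, a normalization that sets the typical gene equal between libraries, and its factors were 0.9817 to 1.018. A check for mixed-up samples asked in each library whether a single gene was over 10 CPM. In 6 of the 12 libraries the answer did not match the record of the cell line on their label. A375 and SK-MEL-28 therefore name labels here, and results in both need not hold for 2 different lines. How the libraries that did not match fall among the groups is not given here. The treatment comparison within each label uses only libraries of that label, taken as given. Libraries of the 2 labels were alike: of 10421 genes with at least 10 CPM, 71 (0.681%) differed over 4-fold with etoposide and 362 (3.47%) over 2-fold. The melanocytic factor SOX10 was abundant, with group means of 291 to 474 CPM, and the lineage marker S100B had 58.4 to 98.1 CPM. Single libraries of SOX10 were spread, from 325 to 579 CPM in A375 and 166 to 419 CPM in SK-MEL-28 with etoposide + rapamycin. The pigment genes MLANA and PMEL stayed at or under 2.50 CPM on average in each group, and TYR at or under 0.0889 CPM. Summed over 12 markers of leukocytes, endothelium, epithelium and fibroblasts, the level was 29.2 to 35.1 CPM in A375 with etoposide, 21.8 to 25.2 CPM with etoposide + rapamycin, 37.0 to 43.6 CPM in SK-MEL-28 with etoposide and 24.9 to 29.0 CPM with etoposide + rapamycin. This sum was thus lower with rapamycin in each label, with the fibroblast gene LUM (log2 fold change -0.73 and -0.66) among its larger parts. Its part in the receptor results was not tested. Among the defining markers, CD3E averaged at most 0.0708 CPM, EPCAM 0.255 CPM and PTPRC 0.458 CPM in any group, but others were detected. LUM had the highest group mean, at 25.6 CPM in SK-MEL-28 with etoposide and 16.2 CPM with rapamycin added. In A375 LUM averaged 7.29 and 4.39 CPM. Group means reached 9.80 CPM for the epithelial keratin KRT14 and 5.73 CPM for the fibroblast gene DCN. For the endothelial genes PECAM1 and VWF they reached 5.21 and 2.64 CPM.

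The promoters of the receptors that moved in both labels are printed here because these genes changed together by treatment. Each is the 250 bases before the annotated start (RefSeq, GRCh38.p14), read 5′ to 3′ on the strand of the gene, and 9 of the 10 genes had an entry. Capitals mark matches, on either strand, to the GC box (GGGCGG), the FOXO site (GTAAACA), the cAMP response element (CRE, TGACGTCA) or the E-box (CACGTG). AXL lies at chr19:41218973-41219222 on the forward strand, and this is the first of 2 annotated starts. IGF1R lies at chr15:98648289-98648538 on the forward strand and INSR at chr19:7294415-7294664 on the reverse strand. EPHA2 lies at chr1:16156070-16156319 on the reverse strand and MET at chr7:116671946-116672195 on the forward strand.
AXL: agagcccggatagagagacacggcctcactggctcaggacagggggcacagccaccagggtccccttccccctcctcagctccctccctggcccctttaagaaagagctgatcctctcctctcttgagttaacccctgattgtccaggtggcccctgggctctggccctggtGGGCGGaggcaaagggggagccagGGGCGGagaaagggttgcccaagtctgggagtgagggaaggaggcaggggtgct
IGF1R: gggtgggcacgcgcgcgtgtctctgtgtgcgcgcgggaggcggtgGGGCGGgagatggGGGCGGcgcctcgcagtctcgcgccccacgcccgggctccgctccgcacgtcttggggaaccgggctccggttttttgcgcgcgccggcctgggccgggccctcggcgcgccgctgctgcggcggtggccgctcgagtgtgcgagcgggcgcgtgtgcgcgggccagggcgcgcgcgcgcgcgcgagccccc
INSR: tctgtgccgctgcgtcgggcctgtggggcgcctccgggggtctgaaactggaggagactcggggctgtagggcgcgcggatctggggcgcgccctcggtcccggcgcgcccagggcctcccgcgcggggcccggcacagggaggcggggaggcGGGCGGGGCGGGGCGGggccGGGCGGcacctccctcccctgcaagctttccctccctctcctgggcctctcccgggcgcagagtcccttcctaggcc
EPHA2: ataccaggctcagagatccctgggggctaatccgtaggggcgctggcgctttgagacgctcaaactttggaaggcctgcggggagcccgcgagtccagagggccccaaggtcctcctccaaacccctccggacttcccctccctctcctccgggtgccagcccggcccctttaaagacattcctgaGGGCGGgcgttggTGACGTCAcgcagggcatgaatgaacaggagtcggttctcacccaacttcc
MET: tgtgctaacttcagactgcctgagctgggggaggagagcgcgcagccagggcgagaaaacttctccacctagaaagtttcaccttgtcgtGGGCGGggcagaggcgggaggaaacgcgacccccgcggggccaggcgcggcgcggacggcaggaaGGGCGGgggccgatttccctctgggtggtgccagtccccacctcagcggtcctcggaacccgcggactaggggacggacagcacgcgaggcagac

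A GC box was present in each of these windows, with 2 matches in AXL, 2 in IGF1R, 4 in INSR, 1 in EPHA2 and 2 in MET. The matches of INSR partly overlap one another. Of 35116 promoter windows of this length, 42.6% held a GC box, so its presence is common. EPHA2 also held a CRE, found in 1.65% of windows. None of the 5 windows held the FOXO letters (2.98% of windows) or the E-box letters (6.34%).

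To see which receptors these cells expressed most, CPM was divided by the length of each gene's merged exons (GENCODE release 44), which gives CPM per kb. On this scale AXL, the receptor for GAS6, had the highest mean of 58 receptor tyrosine kinases in A375, with 34.5 ± 1.04 CPM per kb (SD, n = 3) with etoposide and 52.5 ± 0.772 with etoposide + rapamycin. EPHA2, a receptor for ephrin-A ligands on neighbouring cells, followed with 31.4 ± 2.95 and 43.3 ± 2.38 CPM per kb. With etoposide the ranges of these top genes overlapped. In SK-MEL-28 the order was turned, with EPHA2 highest at 72.0 ± 3.62 and 84.7 ± 1.16 CPM per kb and AXL next at 37.3 ± 0.400 and 53.7 ± 0.273, without overlap. Of the 10 receptors, ERBB3, a neuregulin receptor with little kinase activity of its own, came next after EPHA2 and AXL in every group at 17.6 to 23.5 CPM per kb. In A375 with etoposide the collagen receptor DDR1, which is not among the 10, stood before it at 22.3 against 21.4 CPM per kb. Their ranges overlapped (20.9 to 23.1 against 20.5 to 22.5). The top place in that group depended on the length used. Per kb of the longest transcript, DDR1 (48.9) and ERBB3 (40.0) were above AXL (37.5), whereas AXL led in A375 with etoposide + rapamycin (57.1) and EPHA2 in SK-MEL-28 (75.6 and 88.9).

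The middle of the order was MET, the receptor of hepatocyte growth factor, then IGF1R, which binds insulin-like growth factors, with etoposide. MET had 16.3 CPM per kb in A375 and 15.5 in SK-MEL-28, and IGF1R had 10.6 and 12.1. With etoposide + rapamycin IGF1R stood before MET, at 14.0 against 13.7 CPM per kb in A375, where their ranges overlapped, and at 18.2 against 12.6 in SK-MEL-28, where they did not. In the latter group IGF1R overlapped with ERBB3. ERBB2, which has no ligand of its own and pairs with other ERBB receptors, was sixth in each group at 7.18 to 8.24 CPM per kb. EGFR, INSR and PDGFRB lay lower, between 1.11 and 2.73 CPM per kb in every group, and INSR overlapped with PDGFRB in A375 with etoposide. KIT was the lowest of the 10 in every group.

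**Figure D1:**
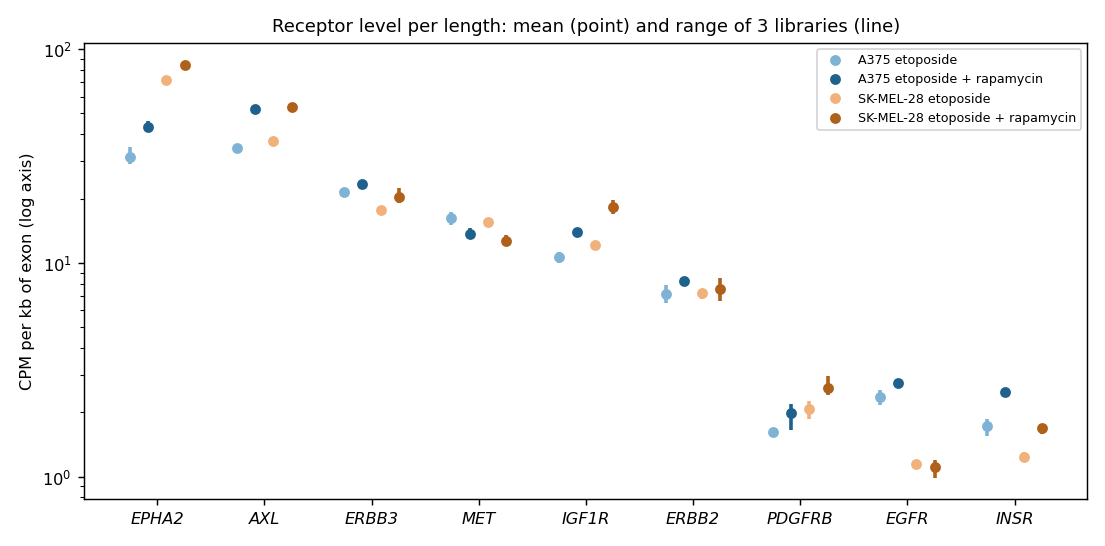
Level of 9 receptors in CPM per kb of exon (vertical log axis) in the 4 groups, with the mean of 3 libraries as a point and their range as a line. On this length AXL leads in A375 at 34.5 and 52.5 (with etoposide ERBB3 leads per kb of the longest transcript), EPHA2 leads in SK-MEL-28 at 72.0 and 84.7, and KIT, with at most 4 counts in a library, is not drawn.

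Of the 10 receptors, 9 passed the filter on low counts, each with at least 326 counts in every library, so no receptor passed through one group alone. In A375, 7 of these 9 were higher with rapamycin and 1 was lower at an adjusted p under 0.05 by edgeR's quasi-likelihood test, where 14.3% of the 18844 genes tested were higher and 13.8% lower. In SK-MEL-28, 4 were higher and 1 was lower, against 8.83% and 10.1% of 18897 genes. The thresholds of the study also ask for a fold change over 1.5, and a gene past both is named as called. Then 1 receptor was called in A375 (AXL) and 1 in SK-MEL-28 (IGF1R), against 5.89% and 4.99% of all genes. For A375 the median log2 fold change of the 9 was 0.294 and for SK-MEL-28 0.230, beside medians of all genes of -0.0051 and 0.0053. The 3 libraries of each treatment did not overlap for 8 of the 9 in A375 and 7 of the 9 in SK-MEL-28, against 42.6% and 35.9% of all genes. In a bulk library, a higher level can come from more RNA per cell or from more cells with the RNA, and these cannot be told apart.

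**Figure D2:**
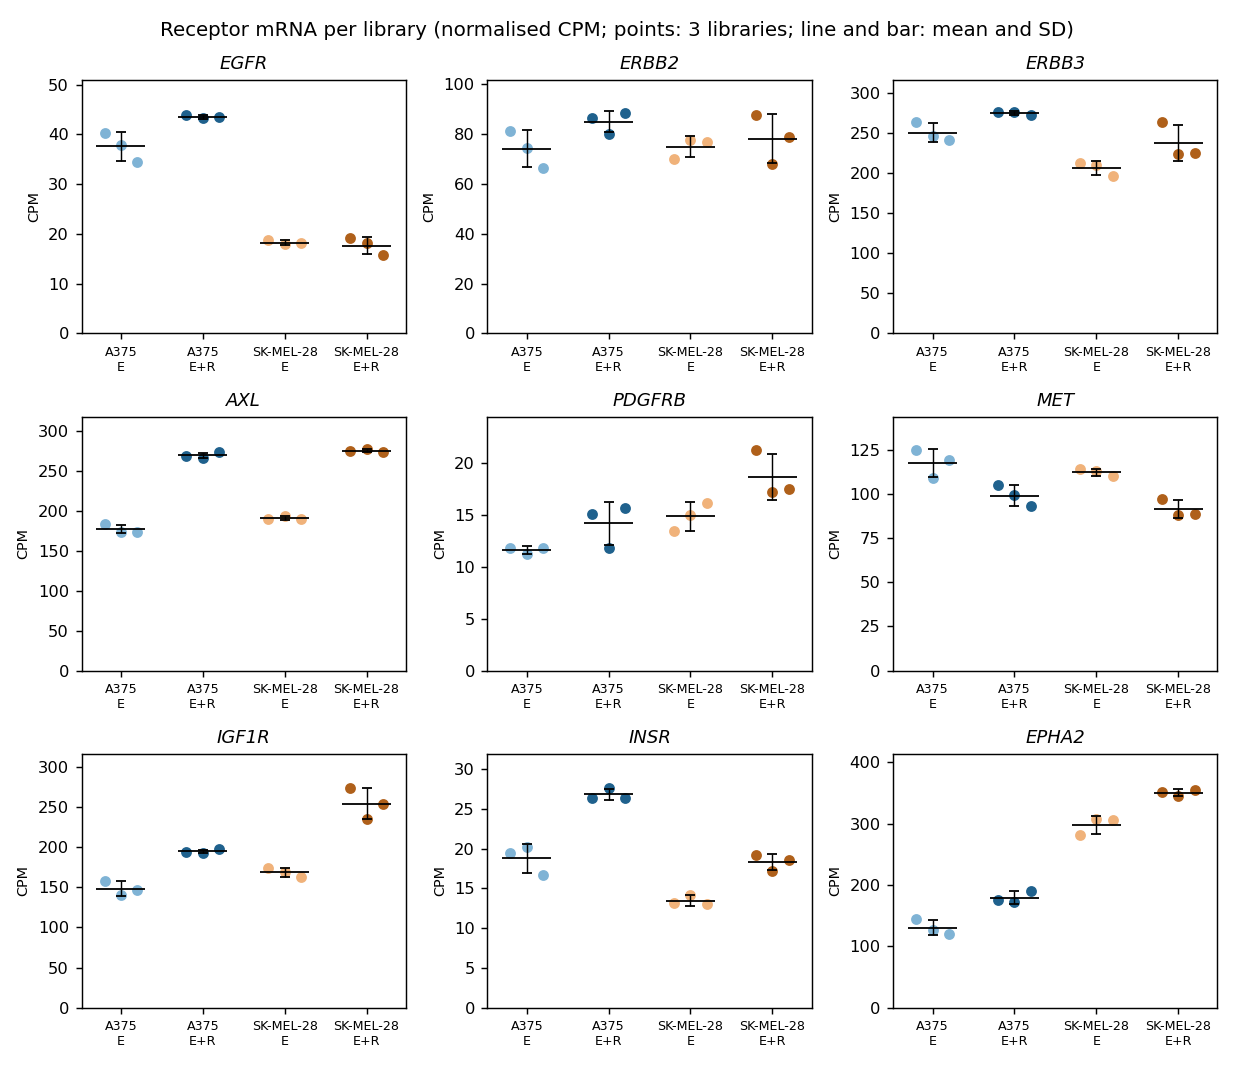
CPM of 9 receptors in each of the 12 libraries (points; E is etoposide and E+R etoposide + rapamycin), with the mean as a line and the SD as a bar, on axes from 0. AXL, IGF1R, INSR and EPHA2 lie higher with rapamycin in both labels and MET lower, without overlap of the libraries, whereas ERBB2 overlaps in both.

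AXL (chr19:41219223-41261766, forward strand) had the lowest adjusted p of the 9 receptors in each label. In A375 the etoposide libraries had 183, 174 and 174 CPM and the etoposide + rapamycin libraries 269, 266 and 273 CPM. In SK-MEL-28 these were 190, 194 and 190 CPM against 275, 277 and 274 CPM. Every library with rapamycin was higher than every library without, and the 2 labels nearly met at each treatment. The log2 fold change was 0.61 in A375 (SE 0.0437, adjusted p = 1.43e-06, edgeR's quasi-likelihood test) and 0.52 in SK-MEL-28 (SE 0.0458, adjusted p = 6.67e-06, same test), the latter a 1.44-fold rise under the fold threshold. Scaled by library totals in place of TMM, the A375 value was 0.57 and no longer called.

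GAS6, the vitamin K-dependent ligand that activates AXL, rose with it. Its A375 libraries had 31.1, 32.9 and 30.2 CPM with etoposide and 54.1, 57.9 and 60.8 CPM with etoposide + rapamycin. In SK-MEL-28 they had 13.3, 15.7 and 15.8 CPM and then 27.2, 26.1 and 27.7 CPM. GAS6 was called in both labels, with log2 fold changes of 0.88 and 0.85 (adjusted p = 1.55e-06 and 3.13e-05, edgeR). PROS1, the related ligand that prefers MERTK and TYRO3, went the other way. It fell by 0.76 on the log2 scale in A375 (SE 0.109), where it was called, and by 0.25 in SK-MEL-28 (SE 0.0734), where only the adjusted p passed. MERTK, a sister receptor of AXL, was low, at 1.97 ± 0.558 CPM (SD, n = 3) in A375 and 3.36 ± 0.191 CPM in SK-MEL-28 with etoposide, and was called lower in both, by 1.32 and 0.94 on the log2 scale.

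IGF1R (chr15:98648539-98964530, forward strand) rose in both labels. Its A375 libraries had 158, 140 and 146 CPM with etoposide and 194, 193 and 197 CPM with etoposide + rapamycin. In SK-MEL-28 they had 174, 169 and 163 CPM and then 274, 235 and 253 CPM. The treatments did not overlap in either label, and the SK-MEL-28 libraries with rapamycin were the most spread. The log2 fold change was 0.40 in A375 (SE 0.0509, adjusted p = 0.000121, edgeR) and 0.59 in SK-MEL-28 (SE 0.0603, adjusted p = 2.52e-05, edgeR). The SK-MEL-28 call stood at the fold threshold: without etoposide + rapamycin replicate 1 or without etoposide replicate 3 it was lost, and the lowest value with a library left out was 0.53, with the adjusted p at most 0.000417.

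INSR (chr19:7112255-7294414, reverse strand), the insulin receptor and closest relative of IGF1R, was several times lower per length than IGF1R. In A375 it went from 19.4, 20.2 and 16.7 CPM to 26.4, 27.6 and 26.4 CPM, and in SK-MEL-28 from 13.2, 14.2 and 13.0 CPM to 19.2, 17.2 and 18.6 CPM. All libraries with rapamycin lay above those of the same label without. Its log2 fold change was 0.52 (SE 0.0896, adjusted p = 0.00104) in A375 and 0.45 (SE 0.0923, adjusted p = 0.00472) in SK-MEL-28 by edgeR, under the fold threshold in both.

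The ligands of these receptors, chosen after their values were seen, were at or near 0. IGF1 had 6 counts in all 12 libraries, and IGF2 averaged 0.185 to 0.814 CPM per group. Their main adaptors went in different directions in A375. IRS2, which links insulin and IGF1 receptors to PI3K, was abundant and went from 565, 476 and 514 CPM to 736, 760 and 820 CPM in A375 and from 643, 676 and 657 CPM to 1030, 941 and 1020 CPM in SK-MEL-28. Its log2 fold changes of 0.58 and 0.59 sat on either side of the fold threshold, with adjusted p = 3.41e-05 and 2.76e-06 by edgeR. IRS1, the sister adaptor, averaged 9.44 ± 1.13 CPM in A375 with etoposide and 6.03 ± 0.796 CPM with rapamycin added (SD, n = 3), a called fall by 0.64 on the log2 scale. In SK-MEL-28 it averaged 16.5 ± 0.929 and 13.5 ± 1.94 CPM, with a log2 fold change of -0.30 that did not pass (adjusted p = 0.0889, edgeR).

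EPHA2 (chr1:16124337-16156069, reverse strand) rose in both labels from different starting levels. In A375 it went from 144, 127 and 120 CPM to 176, 172 and 191 CPM, and in SK-MEL-28 from 281, 308 and 306 CPM to 352, 345 and 355 CPM. Neither label had overlap between the treatments, and the highest A375 library stayed below the lowest of SK-MEL-28. Its log2 fold change was 0.47 in A375 (SE 0.0663, adjusted p = 0.000265) and 0.23 in SK-MEL-28 (SE 0.0502, adjusted p = 0.00639) by edgeR. Of its ephrin-A ligands, EFNA3 averaged 5.19 ± 0.850 CPM in SK-MEL-28 with etoposide and 2.28 ± 0.690 CPM with rapamycin added (SD, n = 3), a called fall by 1.18 on the log2 scale. In A375 EFNA3 averaged 5.07 and 3.97 CPM, with a log2 fold change of -0.35 (adjusted p = 0.123, edgeR). The more abundant ligand EFNA1 did not pass in either label, with 32.1 CPM for A375 with etoposide and 29.5 CPM once rapamycin was added, and 23.0 then 22.6 CPM for SK-MEL-28. EFNA4 and EFNA5 did not pass either, at 0.10 and 0.09 on the log2 scale for A375, then 0.18 and 0.24 for SK-MEL-28.

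MET (chr7:116672196-116798377, forward strand) was the receptor that fell. In A375 it went from 125, 109 and 119 CPM to 105, 99.3 and 93.1 CPM, and in SK-MEL-28 from 114, 113 and 110 CPM to 97.2, 88.2 and 88.5 CPM. The libraries with rapamycin were below those without in each label. By edgeR, the log2 fold change was -0.24 in A375 (SE 0.0604, adjusted p = 0.00966) and -0.30 in SK-MEL-28 (SE 0.0544, adjusted p = 0.00199). Without A375 etoposide + rapamycin replicate 3 the A375 value was -0.20 and did not pass (adjusted p = 0.0586, edgeR). Its ligand HGF, a gene chosen after its values were seen, averaged 1.95 and 2.98 CPM in A375 and 0.480 and 0.679 CPM in SK-MEL-28, and did not pass in either.

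**Figure D3:**
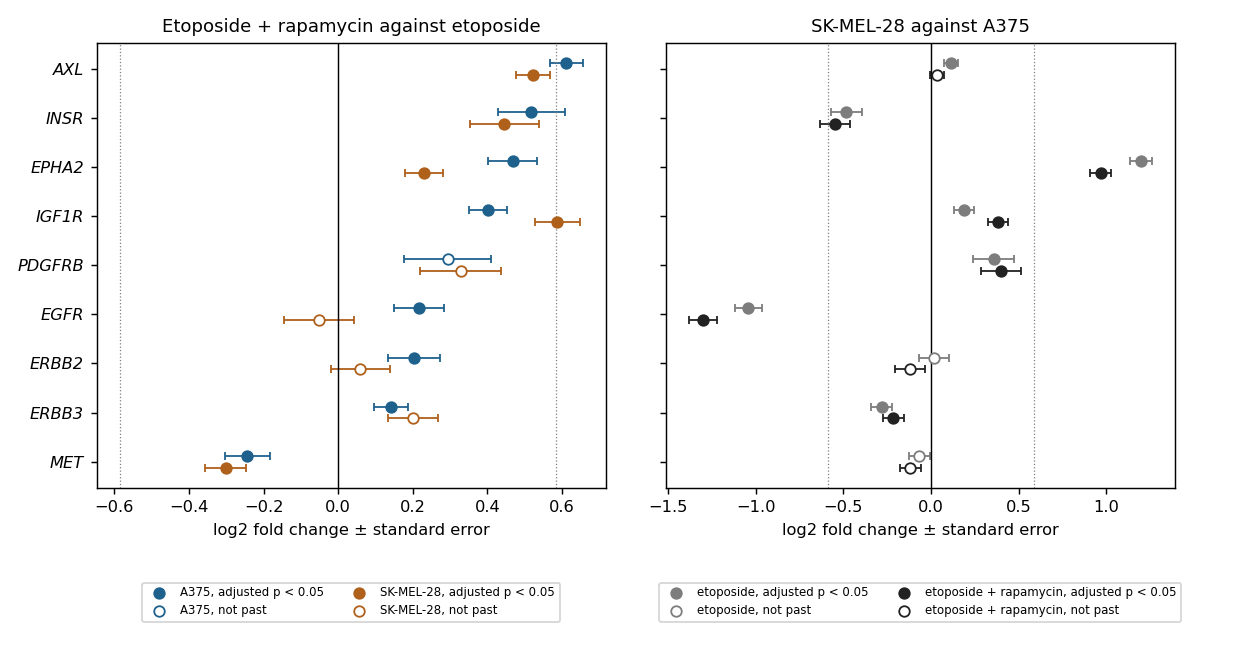
Log2 fold change with its standard error of 9 receptors, on the left for etoposide + rapamycin against etoposide in each label and on the right for SK-MEL-28 against A375 under each treatment, filled where the adjusted p was under 0.05, with dotted lines at a fold change of 1.5. On the left, AXL in A375 (0.61) and IGF1R in SK-MEL-28 (0.59) reach the dotted line and MET lies below 0 in both labels, and on the right EGFR and EPHA2 lie furthest from 0.

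Of the ERBB family, EGFR (chr7:55019017-55211628, forward strand) had 40.3, 37.9 and 34.5 CPM in A375 with etoposide and 43.9, 43.2 and 43.5 CPM with etoposide + rapamycin. In SK-MEL-28 it had 18.8, 17.9 and 18.1 CPM and then 19.1, 18.2 and 15.7 CPM. The treatments were apart in A375 and overlapped in SK-MEL-28. Its log2 fold change in A375 was 0.22 (SE 0.0669, adjusted p = 0.029, edgeR), and in SK-MEL-28 it was -0.05 (SE 0.0948, adjusted p = 0.765, edgeR).

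ERBB2 (chr17:39687914-39730426, forward strand) had 81.3, 74.4 and 66.6 CPM in A375 with etoposide and 86.3, 80.2 and 88.6 CPM with etoposide + rapamycin, and these ranges overlapped. In SK-MEL-28 it had 70.2, 77.8 and 76.9 CPM and then 87.6, 68.2 and 78.9 CPM, also with overlap. The log2 fold change was 0.20 in A375 (SE 0.0696, adjusted p = 0.0466, edgeR) and 0.06 in SK-MEL-28 (SE 0.0785, adjusted p = 0.66, edgeR). Exons of ERBB2 overlap those of MIEN1 (571 bases) and PGAP3 (144 bases) on the other strand, and whether counting used strand is not stated, so its values are uncertain. The PGAP3 row had a log2 fold change of 0.26 in A375 and the MIEN1 row -0.02.

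ERBB3 (chr12:56076799-56103505, forward strand) had 264, 247 and 241 CPM in A375 with etoposide and 276, 277 and 273 CPM with etoposide + rapamycin. In SK-MEL-28 it had 213, 210 and 196 CPM and then 264, 224 and 225 CPM. The treatments were apart in each label, by a small margin. The log2 fold change was 0.14 in A375 (SE 0.0464, adjusted p = 0.0377, edgeR) and 0.20 in SK-MEL-28 (SE 0.0668, adjusted p = 0.0535, edgeR), where it did not pass. In the table, the ERBB3 row shares its locus with rows named PA2G4 and AC034102.2, which together held 84185 counts beside 87114 of ERBB3, and how reads were divided among them is not stated. The PA2G4 row, named after its values were seen, had log2 fold changes of -0.01 and 0.01.

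These ERBB changes in A375 were small and stood near the threshold. With 1 library left out, the log2 fold change stayed at 0.158 to 0.272 for EGFR, 0.113 to 0.183 for ERBB3 and 0.131 to 0.277 for ERBB2, but the adjusted p often did not pass. EGFR did not pass without etoposide replicate 2 or 3 or without any 1 of the 3 etoposide + rapamycin libraries (adjusted p up to 0.119, edgeR), and the same held for ERBB3 (up to 0.147). ERBB2 did not pass without etoposide replicate 2 or 3 or without etoposide + rapamycin replicate 1 or 3 (up to 0.186). Some alternatives that kept all libraries also lost the pass. Over all 13 alternatives, EGFR did not pass in 7, ERBB2 in 8 and ERBB3 in 9. ERBB3 in SK-MEL-28 passed without etoposide + rapamycin replicate 2, at 0.24.

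Ligands of the ERBB family also changed. AREG (amphiregulin, which binds EGFR) had 37.1, 37.7 and 37.3 CPM in A375 with etoposide and 86.7, 82.7 and 86.4 CPM with etoposide + rapamycin. In SK-MEL-28 it had 7.25, 7.77 and 8.13 CPM and then 16.3, 11.6 and 12.0 CPM. It was called in both, with log2 fold changes of 1.20 (SE 0.0493) and 0.78 (SE 0.137). NRG1, a ligand of ERBB3, was also called higher in both, from 4.67 ± 0.991 to 10.3 ± 0.898 CPM in A375 and from 3.75 ± 0.260 to 5.67 ± 1.08 CPM in SK-MEL-28 (SD, n = 3). EGF was called lower in both, from 3.61 ± 0.843 to 2.03 ± 0.344 CPM and from 8.67 ± 0.0484 to 3.93 ± 0.394 CPM.

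TGFA, an EGFR ligand named after its values were seen, had 893, 886 and 921 CPM in A375 with etoposide and 644, 623 and 599 CPM with etoposide + rapamycin, a fall by 0.53 on the log2 scale (adjusted p = 3.35e-06, edgeR) under the fold threshold. In SK-MEL-28 it had 1100, 1050 and 1080 CPM and then 1090, 1010 and 1000 CPM, with a log2 fold change of -0.06 (adjusted p = 0.349, edgeR).

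Of 25 ligand genes, 20 were tested in A375, where 5 were higher and 3 lower at the adjusted p, with 4 and 2 called. Among all genes tested under that label, 14.3% were higher, 13.8% lower and 5.89% called in either direction. In SK-MEL-28, 19 were tested, with 3 higher and 4 lower, and 3 and 3 called. The corresponding shares of all genes were 8.83% higher, 10.1% lower and 4.99% called. The median log2 fold changes of the ligands were 0.0941 and -0.0638, beside all-gene medians of -0.0051 and 0.0053. Ligand changes thus went both ways in each label, including among ligands of one receptor, as did changes over all genes. These all-gene shares and medians are also the background for the lists below of other receptor kinases, adaptors, FOXO targets and state genes. Whether any of these lists departs from that background was not tested.

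**Figure D4:**
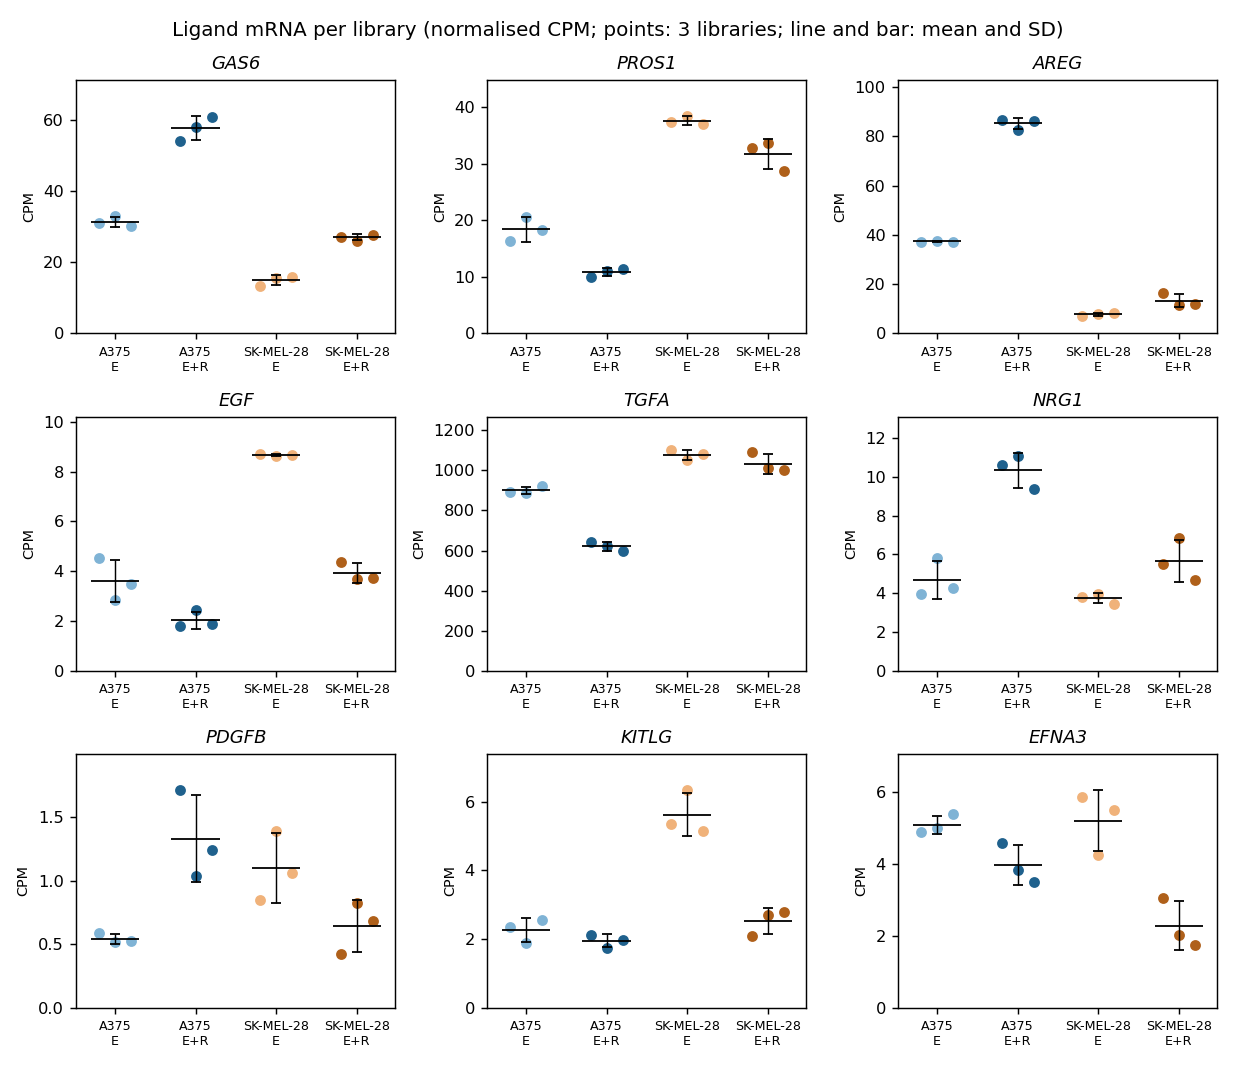
CPM of 9 ligand genes in each of the 12 libraries (points; E is etoposide and E+R etoposide + rapamycin), with the mean as a line and the SD as a bar, on axes from 0. GAS6, AREG and NRG1 lie higher with rapamycin in both labels and EGF lower, whereas TGFA averages 900 and 622 CPM in A375 and 1080 and 1030 CPM in SK-MEL-28.

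PDGFRB (chr5:150113839-150155872, reverse strand), the receptor of PDGF-B, had 11.8, 11.2 and 11.8 CPM in A375 with etoposide and 15.1, 11.8 and 15.6 CPM with etoposide + rapamycin. In SK-MEL-28 it had 13.4, 15.0 and 16.1 CPM and then 21.2, 17.2 and 17.5 CPM. The libraries did not overlap, but the lowest A375 library with rapamycin was close to those without. This gave a log2 fold change of 0.29 in A375 (SE 0.116, adjusted p = 0.0792) and 0.33 in SK-MEL-28 (SE 0.109, adjusted p = 0.0526) by edgeR, so neither passed. Without A375 etoposide + rapamycin replicate 2 the A375 value was 0.41 and passed. PDGFB itself was low, at 0.543 CPM in A375 with etoposide and 1.33 CPM with etoposide + rapamycin, and was called there at a log2 fold change of 1.29 (SE 0.328). In SK-MEL-28 it averaged 1.10 and 0.641 CPM (log2 fold change -0.78, adjusted p = 0.157, edgeR).

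KIT (chr4:54657267-54740783, forward strand), the receptor of stem cell factor, was close to 0 in each library and was not tested. Its counts were 2, 0 and 0 in A375 with etoposide and 4, 2 and 2 in SK-MEL-28 with etoposide. All 6 libraries with rapamycin had 0 counts, which allows up to 3 counts, or 0.0967 to 0.107 CPM in these libraries, for counting error only. No fold is given at this depth. KITLG, its ligand, was present at 2.27 ± 0.345 and 1.95 ± 0.194 CPM in A375 and at 5.62 ± 0.635 and 2.53 ± 0.381 CPM in SK-MEL-28 (SD, n = 3), where it was called lower by 1.15 on the log2 scale.

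Whether the receptors responded differently in the 2 labels was tested as the difference of the log2 fold changes, SK-MEL-28 minus A375, over all 12 libraries. None of the 9 passed at an adjusted p under 0.05 by edgeR, against 5.62% of 20101 genes. The 3 with the lowest adjusted p were EPHA2 (-0.23, SE 0.0859, adjusted p = 0.135), IGF1R (0.19, SE 0.0791, adjusted p = 0.171) and EGFR (-0.26, SE 0.11, adjusted p = 0.19), all by edgeR. DESeq2 gave 1, EPHA2 (-0.24, adjusted p = 0.0465), and edgeR without A375 etoposide replicate 1 also gave 1, EPHA2 at -0.32. For AXL the difference was -0.08 (SE 0.0545), for MET -0.05 (SE 0.0844) and for INSR -0.06 (SE 0.121). The EGFR, ERBB2 and ERBB3 results on either side of the threshold in the 2 labels are therefore not shown to differ.

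Between the labels with etoposide, SK-MEL-28 minus A375, 4 of the 9 receptors were higher and 3 lower at the adjusted p, against 15.1% and 16.7% of 20101 genes, and 2 were called, against 12.5%. With etoposide + rapamycin 3 were higher and 3 lower, against 18.9% in each direction, and 2 were called, against 14.4%. The called receptors were EPHA2 and EGFR under both treatments. EPHA2 was higher in SK-MEL-28 by 1.20 with etoposide (SE 0.0616, adjusted p = 1.44e-10) and by 0.97 with etoposide + rapamycin (SE 0.0611, adjusted p = 1.77e-09) on the log2 scale. EGFR was lower, with log2 fold changes of -1.04 (SE 0.0783, adjusted p = 1.97e-08) and -1.30 (SE 0.0785, adjusted p = 9.69e-10). These tests are edgeR's quasi-likelihood test.

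Smaller differences between the labels passed for INSR (-0.48 and -0.55), ERBB3 (-0.28 and -0.21), PDGFRB (0.36 and 0.40) and IGF1R (0.19 and 0.38) with etoposide and with etoposide + rapamycin. AXL passed with etoposide alone, at 0.11 (SE 0.0387, adjusted p = 0.0338, edgeR), and was at 0.03 (SE 0.0384) with rapamycin added. With etoposide, AXL and PDGFRB passed only in part of the refits with 1 library left out, with adjusted p up to 0.103 and 0.116 by edgeR, and IGF1R up to 0.0783. With etoposide + rapamycin, PDGFRB did not pass without A375 replicate 2 or without SK-MEL-28 replicate 1 of that treatment, at 0.28 and 0.30 (adjusted p = 0.0700 and 0.0704, edgeR). MET and ERBB2 did not pass under either treatment, with log2 fold changes from -0.12 to 0.02. The difference between labels was thus large in EPHA2 and EGFR and within 1.5-fold for the other 7 receptors.

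Over the 12 libraries, with the mean of each label removed, the log2 CPM of AXL followed that of INSR (Pearson r = 0.957), IGF1R (0.944) and EPHA2 (0.926) and ran against that of MET (-0.882). These libraries share the 2 treatments, so the values describe the shared step between treatments. Of 12319 genes compared, 682 had r over 0.9 with AXL, the nearest being ZSWIM4 (0.995) and EEF2 (0.994), the elongation factor of translation. The nearest to IGF1R were the atypical cadherin FAT1 (0.983) and the zinc finger factor SP2 (0.983), with 326 genes over 0.9. EEF2 was called higher in both labels, with log2 fold changes of 0.82 and 0.61.

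Among the other 48 receptor tyrosine kinases, 38 were tested in A375, with 8 higher and 6 lower at the adjusted p and 4 and 4 called. In SK-MEL-28, 34 were tested, with 4 higher and 6 lower and 1 and 3 called. Their median log2 fold changes were 0.0144 and -0.128. The highest per length was DDR1, a collagen receptor, at 22.3 CPM per kb in A375 and 16.5 in SK-MEL-28 with etoposide, with log2 fold changes of 0.06 and 0.01 that did not pass. EPHB4, a receptor for ephrin-B2, rose in A375 by 0.26 on the log2 scale (adjusted p = 0.00126, edgeR) and had 0.03 in SK-MEL-28. The VEGF receptor KDR fell by 0.52 in A375 and had 0.11 in SK-MEL-28, and its relative FLT1 had -0.01 in A375 and was called in SK-MEL-28 at 1.04 (SE 0.0872).

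Of the remaining family, EPHB3 (0.80) and AATK (1.00) were called higher in A375 and ROR1 (-0.63) lower there. FGFR1, a fibroblast growth factor receptor, had -0.09 in A375 and was called in SK-MEL-28 at -0.59 (SE 0.0826). ROS1 was called lower in SK-MEL-28 at -2.31 (SE 0.371) from 1.56 to 0.313 CPM. EPHA3 rose by 0.34 in SK-MEL-28 (adjusted p = 0.00243, edgeR) and had -0.06 in A375.

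Adaptors and regulators of receptor signalling changed in both directions. Of 25 genes, 24 were tested in A375, with 5 higher, 5 lower and 1 called (IRS1), and 25 in SK-MEL-28, with 4 higher, 4 lower and 2 called (IRS2 and LRIG3). The medians were -0.0488 and -0.0281. LRIG3, of a family of transmembrane proteins that modulate receptor levels, went from 19.0, 18.2 and 16.8 CPM to 40.0, 40.8 and 45.9 CPM in SK-MEL-28, a log2 fold change of 1.23 (SE 0.0818). In A375 it went from 44.7, 44.7 and 47.8 CPM to 57.8, 58.2 and 56.1 CPM, at 0.33 (SE 0.0535).

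FOXO factors and genes known as their targets were listed because FOXO factors can raise INSR, ERBB3 and IRS2. Of 15 genes tested in each label, 4 were higher and 5 lower in A375 and 2 higher and 5 lower in SK-MEL-28, with medians of -0.0501 and -0.066. FBXO32, a muscle-atrophy ubiquitin ligase subunit, was called higher in both (0.60 and 0.62), whereas SESN3, a stress-response gene, was called lower in both (-1.14 and -1.07). CITED2 was called lower in SK-MEL-28 (-0.68) and fell in A375 under the fold threshold (-0.39). IRS2 belongs to this list as well.

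Genes of the melanocytic and dedifferentiated states were listed because these receptors are tied to them. Of 10 melanocytic genes tested, 1 was higher and 3 lower in A375 and 1 higher and 1 lower in SK-MEL-28, with medians of -0.326 and -0.0961. DCT, a pigment enzyme at 0.714 CPM with etoposide, was called in A375 at -1.70 (SE 0.43). MITF, the master factor of the lineage, named after its values were seen, fell by 0.51 in A375 and 0.50 in SK-MEL-28 on the log2 scale (adjusted p = 0.00248 and 0.0032, edgeR). Other genes of this list had higher means with rapamycin. TFAP2A averaged 11.5 CPM in A375 with etoposide and 16.7 CPM with rapamycin added. In SK-MEL-28 LEF1 averaged 15.6 and 21.8 CPM, and DCT 1.75 and 1.89 CPM. Of 12 dedifferentiated genes, 4 were higher and 1 lower in A375 and 4 higher and 2 lower in SK-MEL-28, with medians of 0.227 and 0.168. FOSL1, an AP-1 subunit, was called in A375 at 0.70 (SE 0.0463) and rose by 0.57 in SK-MEL-28. NGFR, a marker of the neural crest-like state also named after its values were seen, fell by 0.57 and 0.27.

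**Figure D5:**
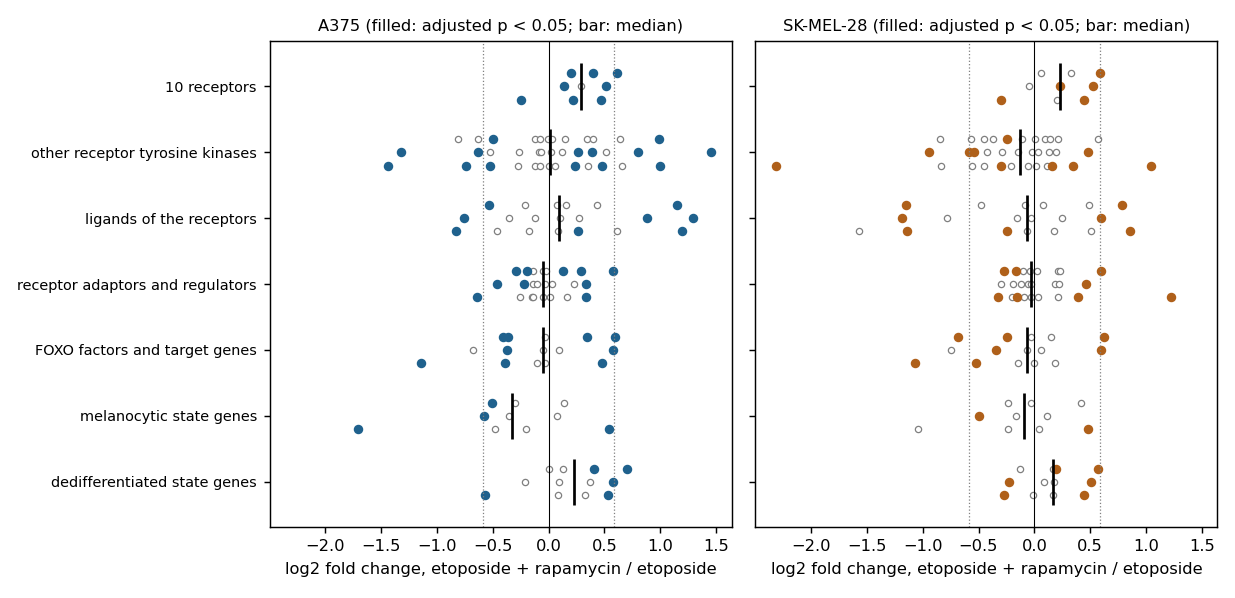
Log2 fold change, etoposide + rapamycin over etoposide, of each tested gene in 7 lists in A375 (left) and SK-MEL-28 (right), filled where the adjusted p was under 0.05, with the list median as a bar and dotted lines at a fold change of 1.5. The median of the receptors lies at 0.294 and 0.230 and that of the dedifferentiated genes at 0.227 and 0.168, and every list, the receptors included, holds genes on both sides of 0.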

How the data were processed

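RNA of the 12 libraries was enriched for polyA and sequenced. In the study's methods, HISAT aligned the reads to GRCh38 and StringTie estimated expression from an Ensembl annotation. The authors deposited raw counts per gene and library, not normalized and not pooled. Neither the step from StringTie to these counts nor the use of strand is given in the sources used here, so errors come from replicate libraries and not from counting. Of 58312 rows, 5 named no gene, with 0.000991% to 0.00529% of a library's counts, and were left out.

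Differential expression was tested in R 4.3.3 with edgeR 4.0.16: filterByExpr (minimum count 10), TMM and the quasi-likelihood F test, with p-values adjusted by Benjamini and Hochberg's method across the whole table. The rapamycin comparison was fitted within each label. A joint fit of the 12 libraries gave the difference of responses and the contrasts between the labels. Standard errors were derived as the absolute log2 fold change over the square root of F. The procedure was tested on simulated counts.

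The receptors and gene lists were chosen with earlier results of these data known. Besides the 10 receptors, genes were named from each list. These were the genes called in both labels and the 3 called genes with the highest mean count in each. To these were added the other receptor tyrosine kinases with the 3 highest levels per length. For each called receptor, the 2 genes with the highest correlation among those with a mean of at least 100 counts were also named. Genes outside this rule are named as such, mark cell types or differed between the labels in their response. EFNA1, EFNA4, EFNA5, PGAP3 and MIEN1 also lie outside it, as other ephrin-A ligands and as genes whose exons overlap those of ERBB2. Alternatives were DESeq2 1.42.0, its size factors, library totals, 2 other filters, other sets of libraries in the fit, the replicate number as a block, no fold threshold and each library left out.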

Additional observations from a re-analysis of the deposited data

Results flagged for a closer look

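None of the 9 receptors tested (KIT was too low) passed edgeR's test of a difference between A375 and SK-MEL-28 in the response to rapamycin, but genes of the other lists did, at an adjusted p under 0.05 in the test of the difference, SK-MEL-28 minus A375 on the log2 scale. Among other receptor tyrosine kinases, FLT1 differed by 1.058 (adjusted p = 9.84e-05) and KDR by 0.6407 (adjusted p = 0.000155), both VEGF receptors that moved upward in SK-MEL-28 relative to A375. The fibroblast growth factor receptor FGFR1 differed by -0.493 (adjusted p = 0.00338) and AATK by -1.438 (adjusted p = 0.00104). The ephrin receptors EPHA3, EPHA4 and EPHB3 differed by 0.4157, 0.4795 and -0.5773. EPHA8 differed by -3.766, but its A375 libraries with etoposide held 3 counts in all, so this fitted value depends on the prior count and is no fold.

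Among the ligands, TGFA differed by 0.4723 (adjusted p = 0.00018), PROS1 by 0.5159, PDGFB by -2.065 and KITLG by -0.9325. PDGFB averaged 0.543 and 1.33 CPM in A375 and 1.10 and 0.641 CPM in SK-MEL-28, so its means moved in opposite directions at a low level. Among the regulators, LRIG3 differed by 0.9016 (adjusted p = 3.43e-05) and ERRFI1, an inhibitor of EGFR, by 0.2628.

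In the lists of states and FOXO targets, CITED2 differed by -0.2842, TFAP2A by -0.4884, LEF1 by 0.4108, DCT by 1.823 and S100B by 0.4195. JUN, an AP-1 subunit, differed by -0.7498 (adjusted p = 6.35e-05), with 0.53 in A375 and -0.23 in SK-MEL-28, each past the adjusted p in its own label. SMAD3 differed by -0.4811 and WNT5A by 0.3586. Groups of 3 libraries were too small for a search for single outlying samples.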

How the results depend on the processing

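AXL, IGF1R, INSR and EPHA2 kept an adjusted p under 0.05 for rapamycin in both labels under every alternative, and MET in SK-MEL-28. In A375, of 13 alternatives, EGFR did not pass in 7, ERBB2 in 8, ERBB3 in 9 and MET in 1. The counts of called receptors moved as follows. Scaling by library totals left 0 in either label, a filter of 10 counts in every library left 0 in SK-MEL-28, and the replicate number as a block left 1 in A375, 0 in SK-MEL-28, 0 for the difference of responses and 2 and 2 between the labels. Without the fold threshold there were 8 in A375, 5 in SK-MEL-28, and 7 and 6 between the labels with etoposide and with etoposide + rapamycin. With 1 library left out, the count was 0 to 1 in SK-MEL-28 and 0 to 1 for the difference of responses, for which DESeq2 gave 1. With the longest transcript as length, 24 of 40 places in the order by level were kept. Values that changed sign with 1 library left out ranged from -0.0262 to 0.151 for ERBB2 and -0.109 to 0.0293 for EGFR with rapamycin in SK-MEL-28, from -0.0509 to 0.0939 for ERBB2 between the labels with etoposide, and from -0.126 to 0.00732 for INSR, -0.0724 to 0.119 for PDGFRB and -0.0137 to 0.109 for ERBB3 in the difference of responses. Causes were not tested. Fewer libraries or genes enter some fits, and several fold changes stand near 1.5. Deviations of same-numbered libraries correlated at -0.065 to 0.000479, beside -0.035 to 0.0457 for libraries with other numbers. No shared deviation by replicate number was thus seen, and whether same-numbered cultures were set up together is not stated.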

Other observations

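Several ligands of the receptors differed between the labels. With etoposide, AREG was lower in SK-MEL-28 than in A375 by 2.28 on the log2 scale (37.4 ± 0.327 against 7.72 ± 0.443 CPM, SD, n = 3, adjusted p = 1.77e-11, edgeR), and GAS6 had a log2 difference of -1.08 (adjusted p = 8.22e-09, edgeR). PROS1 was higher in SK-MEL-28 by 1.04, EGF by 1.26 and KITLG by 1.31. The adaptor IRS1 was higher there by 0.81 and LRIG3 had a log2 difference of -1.34. Of 20 ligand genes tested, 7 were higher and 6 lower at the adjusted p with etoposide, and 5 higher and 11 lower with etoposide + rapamycin, against 15.1% and 16.7%, and 18.9% in each direction, of all genes.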
